A study of Homo sapiens with 3 samples.

Results

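Binding of the vitamin D receptor (VDR) was examined around CAMP, CD14, THBD and TREM1, 4 genes of monocyte innate immunity that are known vitamin D targets. The cells were THP-1, an established human monocytic leukaemia line, and binding was mapped by ChIP-seq, in which DNA cross-linked to VDR is precipitated with an antibody and sequenced. One VDR library came from unstimulated cells and 1 from cells given 10 nM calcitriol (1α,25-dihydroxyvitamin D3) for 40 min. Both were kept overnight beforehand in medium with charcoal-stripped serum, which removes steroid hormones. An IgG sample of pooled material completes the 3 samples and was not analysed here. A peak belonged to a gene's neighbourhood when any of its bases lay within 100 kb to either side of the transcription start site. The genes and the window were chosen with earlier results of these data known. The neighbourhoods held 11 of the 2989 peaks in both lists together, 4 of 1169 unstimulated and 7 of 1820 calcitriol peaks.

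VDR is a ligand-activated transcription factor whose ligand is calcitriol, the hormonal form of vitamin D, and whose usual partner on DNA is a retinoid X receptor. Its typical site is a direct repeat of 2 hexamers spaced by 3 bases. In human monocytes and macrophages, vitamin D signalling is known for inducing the antimicrobial peptide cathelicidin, the product of CAMP. CD14 is the co-receptor that passes bacterial lipopolysaccharide to the Toll-like receptor complex. TREM1 is a surface receptor that amplifies inflammatory signalling in myeloid cells, and THBD encodes thrombomodulin, a surface protein that redirects thrombin toward anticoagulation.

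Each condition has 1 library, and each library pooled 5 immunoprecipitations, so no difference between the conditions could be tested against replicate error. The lists give only the position of each peak, on hg19, with no height, score or p-value, and their depth is unknown. A peak that is missing from a list therefore means that none was called there, not that VDR was absent. Gene expression was not measured. Start sites were known to the nearest kb, at 48.265 Mb on chromosome 3 for CAMP, 140.013 Mb on chromosome 5 for CD14, 23.03 Mb on chromosome 20 for THBD and 41.254 Mb on chromosome 6 for TREM1. CAMP is transcribed toward higher positions and the other 3 genes toward lower positions.

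VDR peaks lay near 3 of the 4 genes in each list, and these were the same 3 genes: CAMP, CD14 and THBD. TREM1 had none in either list. When the genome was divided into 15079 adjacent windows of 200 kb, the size of a gene's neighbourhood, 4.7% held an unstimulated peak, 8.01% a calcitriol peak and 9.27% a peak of either list. The share of genes was 75.0% for either list, with an exact (Clopper-Pearson) 95% interval of 19.4 to 99.4% that covers counting error only. Because the genes were chosen with earlier results known, this share is a description and no estimate for vitamin D targets at large. The windows include stretches without genes and assembly gaps, so they are no background for gene neighbourhoods. On the single chromosomes of the 4 genes the window share ran from 3.64 to 5.03% for unstimulated and from 7.19 to 10.3% for calcitriol peaks. The 3 genes had different arrangements. CAMP had 1 site over its start site in both lists, and CD14 had a group of sites at a distance. The peaks called near THBD lay at different places in the unstimulated and the calcitriol list.

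**Figure D1:**
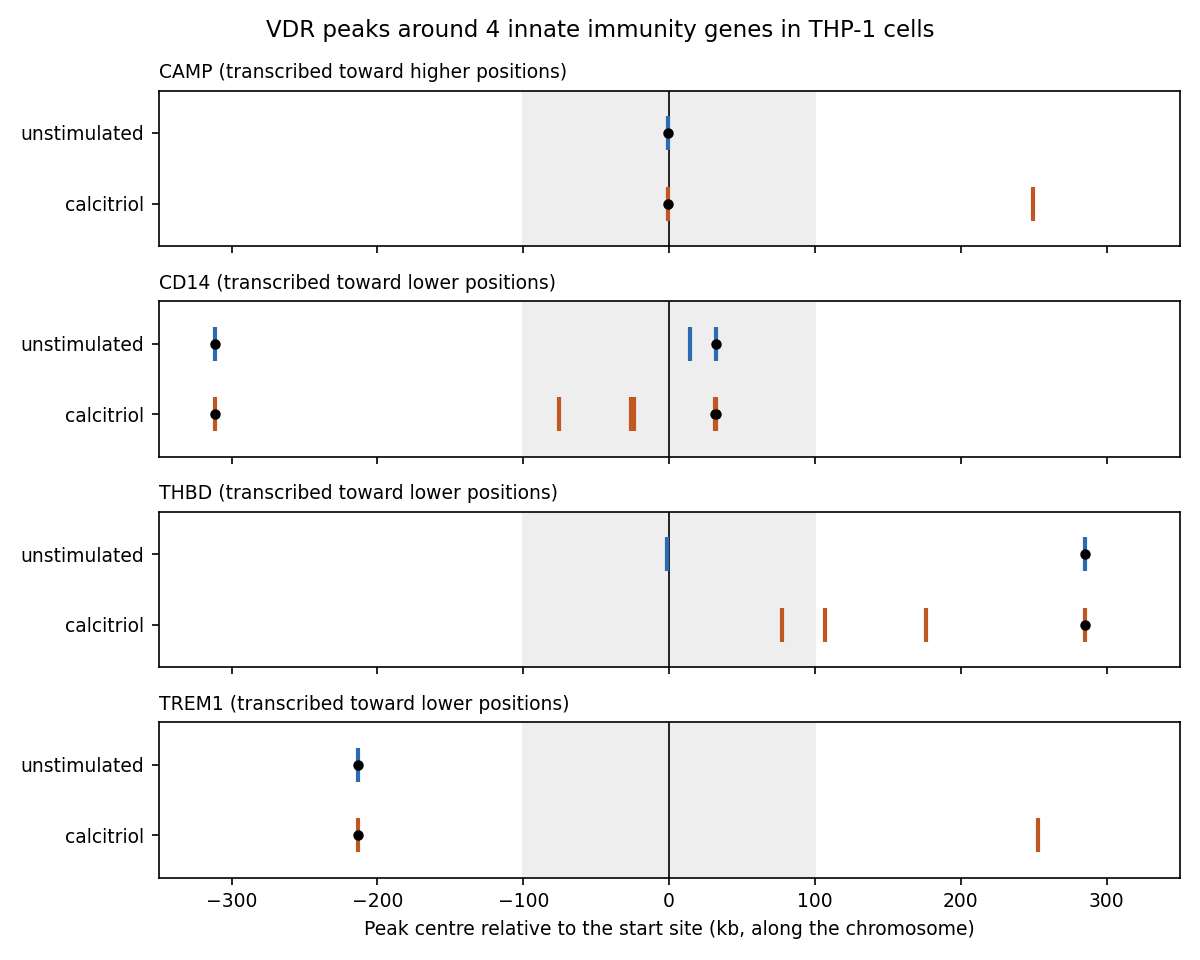
Centres of VDR peaks relative to the start site of each gene, in kb along the chromosome, for the unstimulated (blue) and calcitriol (orange) list. Grey marks the neighbourhood of 100 kb to each side, and a black dot marks a peak that overlaps a peak of the other list. CAMP carries an overlapping pair at its start site, CD14 has 2 unstimulated and 5 calcitriol peaks in the grey area, THBD has 1 of each that do not overlap, and the grey area of TREM1 is empty.

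When peaks of the lists that overlapped were counted as 1 region, the neighbourhoods held 8 regions, 2 of them found in both states, 2 in the unstimulated list alone and 4 in the calcitriol list alone. Of the 200 kb windows, 3.0% held a region found in both states, 2.35% one in the unstimulated list alone and 5.95% one in the calcitriol list alone. Over all 2121 regions of the series these classes made up 27.4%, 20.6% and 52.0%. With so few regions, nothing was read from the comparison. Of the 11 peaks, 3 lay within 5 kb of a start site: both CAMP peaks and the unstimulated THBD peak. The other 8 lay more than 10 kb away. A peak at such a distance cannot be assigned to the named gene from its position. Of genome positions spaced every 10 kb, 0.352% had an unstimulated peak within 5012 bp and 4.66% within 100 kb. For calcitriol peaks these shares were 0.579% and 7.91%. Such positions are not start sites, and the difference was not tested.

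CAMP encodes the precursor of LL-37, a cationic peptide that damages bacterial membranes. Its start site, at the position given above, lay under a VDR peak in both states. If the site is moved by up to 0.5 kb, the unstimulated peak covered 82.0% and the calcitriol peak 80.1% of the possible positions and missed the others by at most 0.18 and 0.199 kb. The unstimulated peak ran from 48263141 to 48265320 on chromosome 3 and was 2179 bp wide. The calcitriol peak ran from 48263231 to 48265301 and was 2070 bp wide. Both reached from well upstream of the gene to just past its start site, from 1.86 kb before to 320 bp after it without ligand and from 1.77 kb before to 301 bp after it with ligand. No other peak of either list lay within 100 kb.

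The CAMP peaks nearly coincided. The calcitriol peak lay wholly inside the unstimulated one, with its start 90 bp further in, its end 19 bp further in and its centre 35.5 bp away. Their overlap was 95.0% of their joint extent. Among the 447 pairs of the series with a single partner on each side, 15 pairs including CAMP overlapped at least as fully, and the median was 64.9%. By distance between centres, 53 of these pairs including CAMP were at least as close, and the median was 235 bp. These ranks were taken for the CAMP pair in particular. Both CAMP peaks were wide for their lists. In the unstimulated list 6.67% of peaks were at least as wide as that at CAMP, and in the calcitriol list 13.4% were. The calcitriol list thus contained no wider peak at CAMP, the difference being -109 bp (calcitriol minus unstimulated). Width says nothing of peak height, which the lists do not give.

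A vitamin D response element is known in an Alu-type repeat of the CAMP promoter region. The 250 bases just upstream of the CAMP start site in RefSeq are shown because both peaks covered this stretch. Whichever position within 0.5 kb the start site takes, the unstimulated peak covered 71 to 250 of these bases and the calcitriol peak 52 to 250. The sequence is from GRCh38.p14 (chr3:48223245-48223494, plus strand), a build whose positions cannot be set against those of the peaks. Capitals would mark a match on either strand to the hexamer AGGTCA, the typical core of VDR sites, or to its relatives: GGTTCA was searched first, then GGGTCA with the variant AGTTCA, and lastly GGTGCA. The stretch held none, so all its letters are in lower case.
CAMP: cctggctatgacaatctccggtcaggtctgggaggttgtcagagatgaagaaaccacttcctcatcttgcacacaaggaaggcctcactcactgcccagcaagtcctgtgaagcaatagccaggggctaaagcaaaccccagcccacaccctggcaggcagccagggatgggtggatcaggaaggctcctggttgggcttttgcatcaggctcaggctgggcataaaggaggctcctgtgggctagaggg

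Of 27305 RefSeq promoters of the same length, 40.3% held at least 1 of the 5 hexamers and 0.0769% held a direct repeat of any 2 of them spaced by 3 bases. Both CAMP peaks extended far beyond the 250 bases. With the start site at the given position, their centres lay outside this stretch, 0.770 kb (unstimulated) and 0.734 kb (calcitriol) upstream of that site. Moving the site by up to 0.5 kb could bring the calcitriol centre inside the stretch. The rest of the peak sequence was not examined, so the lack of matches says nothing of the whole peaks or of the known element. CD14 and TREM1 are shown as well, because their promoters held matches. They lay under no peak of either list, and whether hexamers go with peaks was not tested. Each line gives the hexamer in capitals with up to 12 bases on either side, 5′ to 3′ in the direction of transcription. The CD14 hexamer begins 69 bases before the start site of the RefSeq transcript used, and those of TREM1 begin 194 and 42 bases before it.
CD14: ggaggtgatcagGGTTCAcagaggagggaa
TREM1, distal: aaggaaaactggAGTTCAaagaaacttaac
TREM1, proximal: tccgaagcctctAGGTCAttgtggtgcctt

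None of the 3 promoters held the direct repeat. AGGTCA occurred in 12.1%, GGTTCA in 7.17% and AGTTCA in 8.91% of all promoters, so single hexamers are common. These matches describe the letters and are not binding sites. THBD was not matched in the promoter table.

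The CD14 neighbourhood held more peaks than that of any other of the 4 genes, with 2 unstimulated and 5 calcitriol peaks in 5 separate regions. None was at the gene itself. The nearest unstimulated peak lay 13.4 kb upstream of the start site and the nearest calcitriol peak 23.5 kb downstream. Of the 200 kb windows of the genome, 1.36% held 2 or more unstimulated peaks and 0.219% held 5 or more calcitriol peaks, thresholds set after the CD14 counts were seen. With peaks up to 10 bp apart joined, CD14 had 4 calcitriol peaks, and the window shares were not counted for joined peaks. The unstimulated peaks covered 2610 bp of the neighbourhood and the calcitriol peaks 7268 bp.

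The CD14 site found in both states lay upstream, between 30.4 and 32.7 kb from the start site. In unstimulated cells it was a single narrow peak from 140044491 to 140045401 on chromosome 5, 910 bp wide. After calcitriol the list had 2 peaks there with a gap of 10 bp. One ran from 140043391 to 140044811 (1420 bp) and its neighbour from 140044821 to 140045671 (850 bp). Together they spanned 2280 bp and enclosed the unstimulated peak. That peak shared 320 bp with the former and 580 bp with the latter. The calcitriol list therefore marked a longer stretch here than the unstimulated list, in contrast to CAMP. Where a long stretch is written as several peaks, the number of peaks counts pieces and not sites.

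Closer to CD14, 13.4 to 15.1 kb upstream, the unstimulated list had a peak of 1700 bp from 140026401 to 140028101. No calcitriol peak overlapped it, and the nearest lay 15.3 kb away at the site of both states. On the other side, downstream of the gene, all peaks were calcitriol peaks. A pair lay 23.5 to 26.8 kb from the start site, from 139986181 to 139987570 (1389 bp) and from 139988061 to 139989521 (1460 bp), with a gap of 491 bp between them. A further one lay 74.7 kb away, from 139936111 to 139938260, and was 2149 bp wide. Of the calcitriol list, 11.6% of peaks were at least as wide as this distant one. The nearest unstimulated peaks were 36.9 kb from the pair and 88.1 kb from the distant peak. Thus within 100 kb the unstimulated list had peaks on the upstream side of CD14 alone, and the calcitriol list on both sides. CD14 lies among other protein-coding genes, with TMCO6 and NDUFA2 next to it in the RefSeq gene order, and which gene these sites belong to was not tested.

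**Figure D2:**
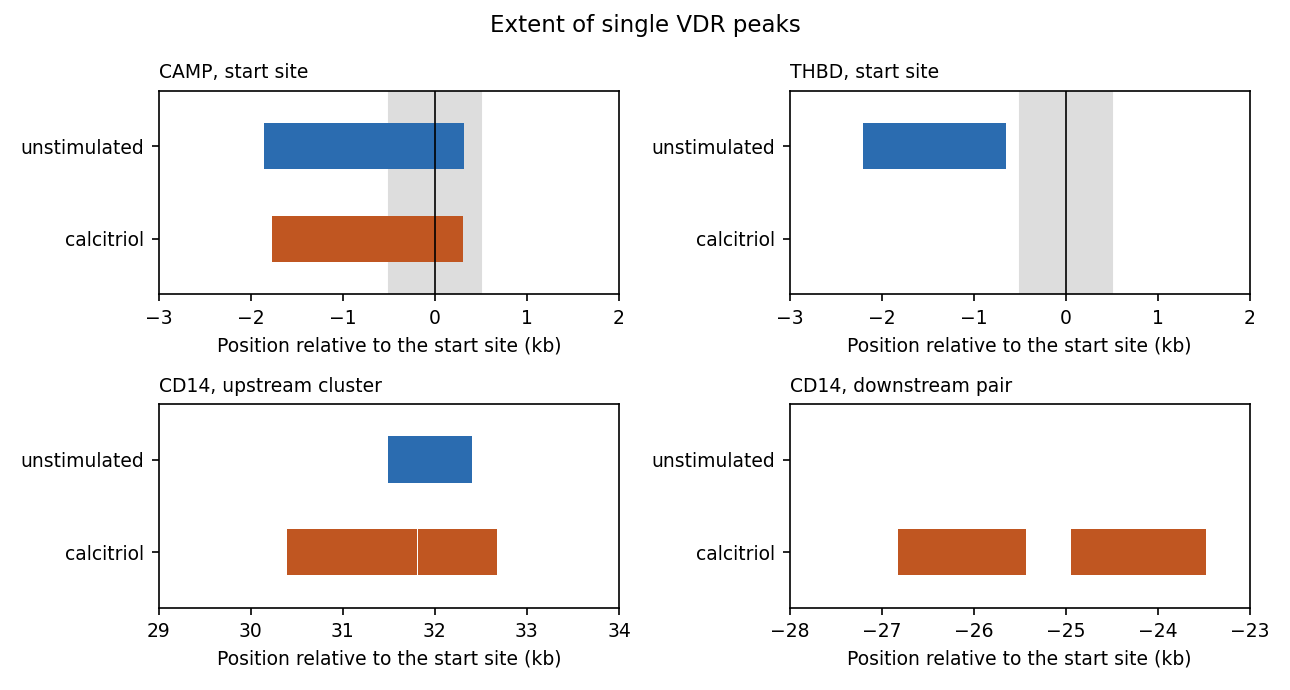
Extent of single peaks, drawn to scale in kb from the start site along the chromosome, for the unstimulated (blue) and calcitriol (orange) list, in 4 stretches of equal length. The line and the grey band mark the start site and its uncertainty of 0.5 kb. The CAMP peaks are nearly congruent, THBD has a peak in the unstimulated list alone, the upstream CD14 site is longer in the calcitriol list, and the downstream CD14 pair is in the calcitriol list alone.

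THBD, an intronless gene, had a peak close to its start site in the unstimulated list but not in the calcitriol list. This peak ran from 23027801 to 23029351 on chromosome 20 and was 1550 bp wide. It lay 0.649 to 2.20 kb downstream of the start site, on the side of the transcribed sequence. If the site is moved by up to 0.5 kb, the near edge of this peak lay 0.149 to 1.149 kb away. The calcitriol peak of the neighbourhood lay on the opposite side, 77.0 kb upstream, from 23107011 to 23108201, and was 1190 bp wide. The peaks were 77.7 kb apart, so no THBD region was found in both states. Among all 200 kb windows, 3.44% held peaks of both lists and 0.458% held peaks of both lists without a region common to them. These were 519 and 69 windows, so 69 of the 519 windows with peaks of both lists had no common region. Over the whole lists, 62.6% of unstimulated and 39.4% of calcitriol peaks overlapped a peak of the other list. The count of windows with peaks of both lists but no common region was chosen after the THBD pattern was seen.

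The calcitriol peak near THBD was the nearest of a series on the upstream side. The next calcitriol peak, just outside the neighbourhood, lay 106.4 kb from the start site (23136381 to 23137491, 1110 bp), and another followed at 175.4 kb (23205441 to 23207291, 1850 bp). None of these 3 overlapped an unstimulated peak. At 284.2 kb upstream both lists had a peak, 1730 bp wide without and 1690 bp wide with ligand. From the THBD start site to that shared site, the unstimulated list had no peak and the calcitriol list had 3. The RefSeq order places SSTR4 next to THBD on the downstream side and CD93 on the upstream side, the side of these calcitriol peaks. How the calcitriol peaks lie relative to these genes was not examined, because the positions at hand for genes are of another build.

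TREM1 had no peak of either list within 100 kb. The nearest VDR site was common to both states and lay 212 to 213 kb from the start site, downstream of it. There the calcitriol peak (41039271 to 41042051 on chromosome 6, 2780 bp) enclosed the unstimulated peak (41039871 to 41041401, 1530 bp), with centres 25.0 bp apart and a difference in width of 1250 bp. On the upstream side the nearest peak was a calcitriol peak at 251.8 kb (41505781 to 41507500), followed by an unstimulated one at 436.9 kb (41690851 to 41692241), neither of which overlapped a peak of the other list. The order of RefSeq genes places TREML4, a member of the same receptor family, and NCR2 next to TREM1.

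The distance from each start site to the nearest peak put CAMP first and TREM1 last in both lists, with CD14 and THBD between them in opposite order. In the unstimulated list the order was CAMP (0 kb), THBD (0.649 kb), CD14 (13.4 kb) and TREM1 (212.6 kb). In the calcitriol list it was CAMP (0 kb), CD14 (23.5 kb), THBD (77.0 kb) and TREM1 (211.9 kb). For scale, the same distance was taken from 301312 positions spaced every 10 kb along the chromosomes. In the unstimulated list 0.0475% of positions had a peak as near as CAMP, 0.0946% as near as THBD, 0.790% as near as CD14 and 8.73% as near as TREM1. In the calcitriol list these shares were 0.0893% for CAMP, 2.21% for CD14, 6.30% for THBD and 14.7% for TREM1. The positions are not start sites, so these shares describe how sparse the lists are and are not a test.

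**Figure D3:**
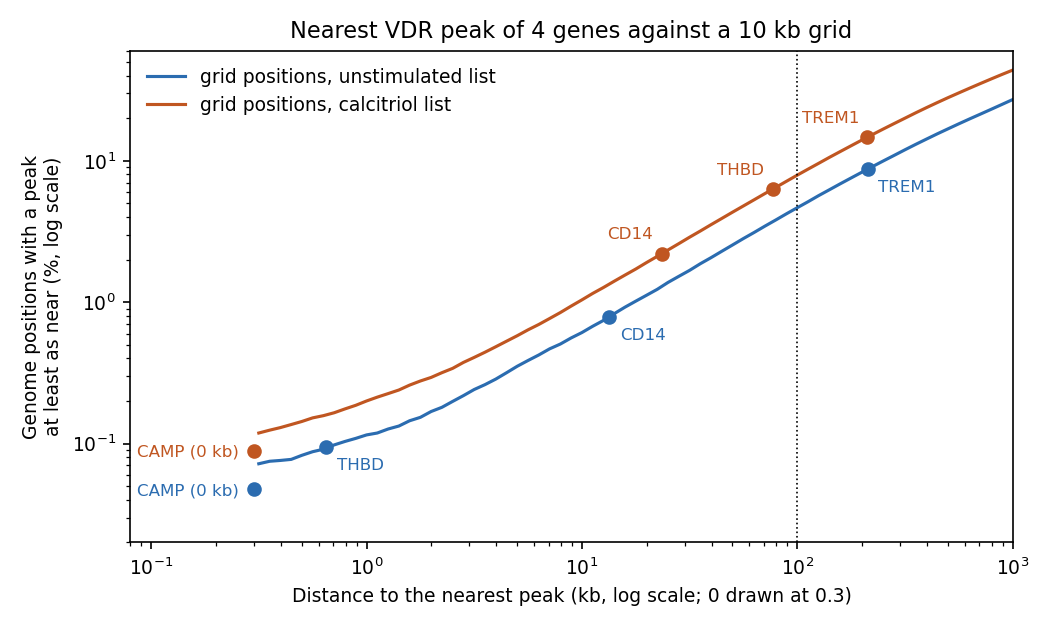
Share of genome positions on a 10 kb grid that have a peak within a given distance (lines) for the unstimulated (blue) and calcitriol (orange) list, with the distance of the nearest peak of each gene (points), on log axes. Points at 0 kb are drawn at 0.3 kb, and the dotted line marks 100 kb. The nearest THBD peak is at 0.649 kb in the unstimulated and at 77.0 kb in the calcitriol list. For TREM1 it is at about 212 kb in both.

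The neighbourhoods also differed in how isolated their peaks were within their own list. The CAMP peak was 788.2 kb from the next unstimulated peak and 248.3 kb from the next calcitriol peak, against list medians of 34.2 and 79.8 kb. In all, 18.4% of unstimulated and 35.7% of calcitriol peaks were at least as isolated. The unstimulated THBD peak was 284.8 kb from the next in its list, and the calcitriol THBD peak 28.2 kb, nearer than the median of its list. At least as isolated were 31.5% of unstimulated and 58.7% of calcitriol peaks. The CD14 peaks stood closer together, with the unstimulated peaks 16.4 kb apart and 4 of the 5 calcitriol peaks within 0.491 kb of another. The closest of these were the pieces 10 bp apart at the shared site. Of unstimulated peaks, 55.4% were at least as isolated as those at CD14. Of calcitriol peaks, 78.2% were at least as isolated as the pair 0.491 kb apart.

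Peak widths near the genes were set beside those of the whole lists. The 4 unstimulated peaks were 910 to 2179 bp wide with a median of 1625 bp, against 1340 bp for their whole list, and 3 of them were wider than that. The 7 calcitriol peaks were 850 to 2149 bp wide with a median of 1420 bp, against 1430 bp, and 3 were wider. Among these 4 and 7 peaks, the narrowest of each state belonged to the shared CD14 site. None of the 11 peaks was among the 170 unstimulated rows that break the position order of their list.

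**Figure D4:**
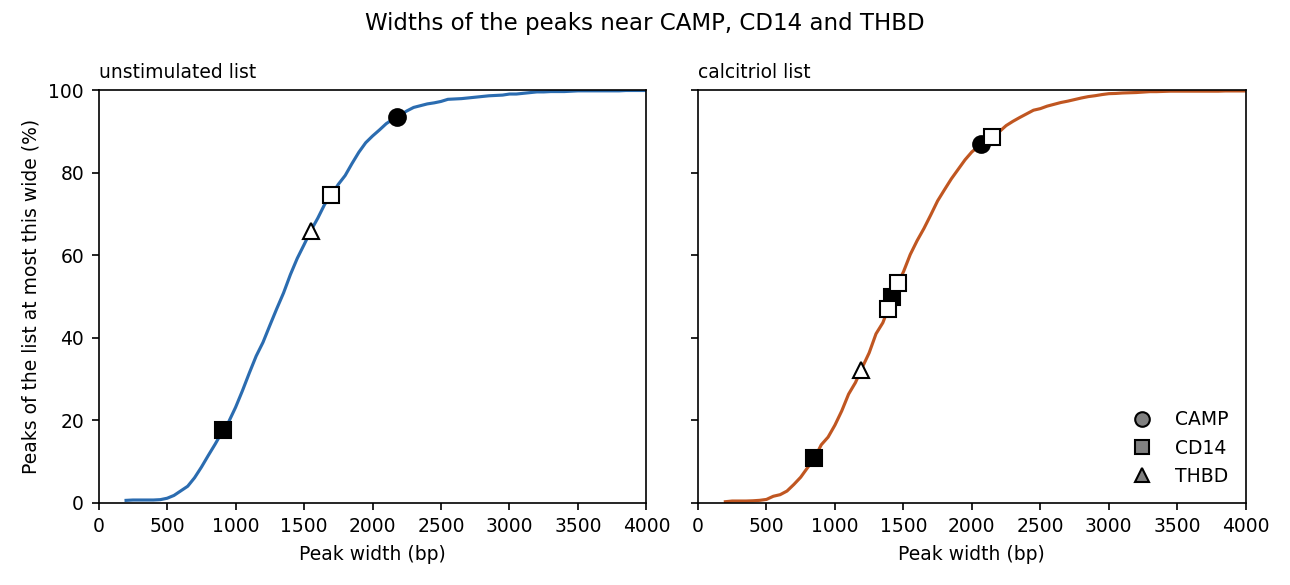
Cumulative share of peaks by width in bp for the unstimulated and calcitriol list (lines), with the peaks near CAMP (circles), CD14 (squares) and THBD (triangles). Filled symbols are peaks that overlap a peak of the other list. CAMP sits high on both curves at 2179 and 2070 bp, and the pieces of the shared CD14 site include the lowest points, at 910 and 850 bp.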

How the data were processed

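The submitters' processing notes name Bowtie, without a version, and the hg19 build. How peaks were called, at which threshold and with what control is not given in the sources used here. Depth-dependent calling would alter which peaks are listed. Per the labels and the deposited protocol, 5 VDR immunoprecipitations were pooled per library and chromatin was sheared to 200 to 400 bp. The authors deposited chromosome, start and end of each peak, without other values, and positions are printed as deposited. Width is end minus start.

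The 4 genes, their start sites (to 1 kb) and the window were chosen with earlier results of these data known. Every peak near them was described. Peaks sharing at least 1 bp were called common to both states. Background windows and grid positions ran to the last peak end of each chromosome. Promoter sequences and gene order came from RefSeq tables of GRCh38.p14. The directions of transcription came from the same tables and, for THBD, from general knowledge. The software was scipy 1.17.1, pandas 2.3.3 and numpy 2.4.6 under Python 3.11.15, and the functions were tested on simulated lists. No test between conditions was made, because each has 1 library. Other windows, definitions of sharing, joined peaks, left-out rows and moved start sites were tried.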

Additional observations from a re-analysis of the deposited data

How the results depend on the processing

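No paired analysis was possible because neither state was sequenced more than 1 time, and no replicate could be left out. Stricter peak thresholds could not be tried, since the lists hold no scores. Of 139 alternative values, 116 stayed the same by the limits used and 23 moved. The limits were 1.5 times for counts, 0.5 kb for distances, the exact 95% interval for percentages and equality for median widths. With windows of 10 kb, CD14 had 0 peaks in both lists, THBD had 0 calcitriol peaks, and genes with a calcitriol peak numbered 1. With 50 kb THBD had 0 calcitriol peaks, and with 200 kb it had 3. With 500 kb CAMP had 2 calcitriol peaks, THBD had 2 unstimulated and 4 calcitriol peaks, and TREM1 had 2 in each list. Genes with an unstimulated peak numbered 2 with 10 kb, and genes with a calcitriol peak numbered 2 with 50 kb. With 500 kb all 4 genes had a peak in each list. These 3 changes in the number of genes fell within the limit for counts. With centres within 100 bp required, 1 region (CAMP) counted as common to both states. Joining adjacent peaks left CD14 with 4 calcitriol peaks, within the limit for counts, and raised the median calcitriol width near the genes to 1765 bp. Measured to peak centres, the nearest unstimulated peaks lay at 0.770 kb (CAMP), 14.3 kb (CD14), 1.42 kb (THBD) and 213.4 kb (TREM1). The nearest calcitriol centres lay at 0.734 kb (CAMP), 24.2 kb (CD14), 77.6 kb (THBD) and 213.3 kb (TREM1). The share of windows with an unstimulated peak was 4.08% on the chromosomes of the genes and 4.13% without out-of-order rows. Moving the start sites by 0.5 kb changed no count of peaks.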
